A study of Sus scrofa with 12 samples.

Results

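The genes of hepatic gluconeogenesis were described in the liver of 12 German Landrace pigs: the enzymes PC, PCK1, FBP1, FBP2 and G6PC, the glucose-6-phosphate carrier SLC37A4 and the transcriptional coactivator PPARGC1A. Every probe set annotated with 1 of these 7 symbols was taken, which gave 7 of 23999 probe sets. They covered 6 of the 5810 named genes tested, since SLC37A4 had 2 probe sets, and G6PC was not analysed here. The genes were chosen by their pathway and also on measured values: FBP2 was selected on its difference between high and low stress response in these same animals. For that contrast the values of PC, PCK1, FBP1, FBP2, SLC37A4 and PPARGC1A are therefore a description without a test.

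Total liver RNA was hybridised to the Affymetrix porcine array, 1 array per pig, in a series on psychosocial stress. Pigs were labelled high or low for stress response and high or low for aggressiveness, and each of the 4 combinations held 3 adults, 1 female and 2 males. All were of the same breed, and the labels name no treatment, genotype or age beyond adult, nor how the traits were scored. An animal is named by stress response, then aggressiveness, then replicate, so that low-high 3 had low stress response and high aggressiveness. Nothing in the labels ties the animals by litter or pen.

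Gluconeogenesis makes glucose from lactate, glycerol and amino acids, and in liver it holds blood glucose up between meals. Pyruvate carboxylase (PC) forms oxaloacetate in mitochondria, and phosphoenolpyruvate carboxykinase (PCK1) turns it into phosphoenolpyruvate. Fructose-1,6-bisphosphatase removes a phosphate later in the path, and it exists as a liver form (FBP1) and a muscle form (FBP2). SLC37A4 carries glucose-6-phosphate into the endoplasmic reticulum, where glucose-6-phosphatase releases glucose. Glucagon and glucocorticoids raise and insulin lowers transcription of several of these genes, partly through PPARGC1A.

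Signals are linear intensities as deposited, in arbitrary units. Levels of different probe sets were set side by side only in marker sums and as rough ranks on the array. They were not read as amounts of RNA. Any pair of arrays correlated at 0.945 to 0.975 on the log2 scale, and median signals ran from 92.7 to 116.8. Over the probe sets tested, the least alike pair of arrays was high-high 3 (median correlation 0.953) and high-low 3 (0.957), with low-high 3 close (0.957). When all probe sets entered the correlation, high-high 3 and low-high 3 were lowest. The number of arrays limits the precision. Hepatocyte markers were high on every array, their summed signal running from 469946 to 546353 in the high stress response pigs and from 427973 to 623832 in the low. In whole liver, fewer cells of a type and less RNA per cell cannot be told apart.

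FBP2, the muscle-type fructose-1,6-bisphosphatase, was the member with a large difference between stress response levels. In the high-high pigs its signal was 103.1, 157.6 and 150.4 for replicates 1 to 3. In the high-low pigs it was 147.5, 259.4 and 122.5. In the low-high pigs it was 362.1, 307.7 and 421.3, and in the low-low pigs 410.1, 329.2 and 342.4. All 6 pigs of high stress response were thus below all 6 of low stress response, and the nearest animals across the gap were high-low 2 and low-high 2.

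Mean FBP2 signal was 156.7 ± 54.3 (SD, n = 6) in the high stress response pigs and 362.2 ± 45.3 (SD, n = 6) in the low. The fitted log2 fold change of high against low was -1.17 (SE 0.18, 95% interval -1.57 to -0.77), which is 2.25-fold more signal at low stress response. It was -1.03 (SE 0.26) within the low aggressiveness pigs and -1.32 (SE 0.26) within the high. Since this contrast chose FBP2, the background is given only for scale. Of 15999 probe sets tested, 24 (0.15%) had every high stress response animal below every low one, and 86 (0.538%) had no overlap in either direction. At an unadjusted p under 0.05, 1305 probe sets (8.16%) differed between stress response levels by limma, and at an adjusted p under 0.05 none did (0%).

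**Figure D1:**
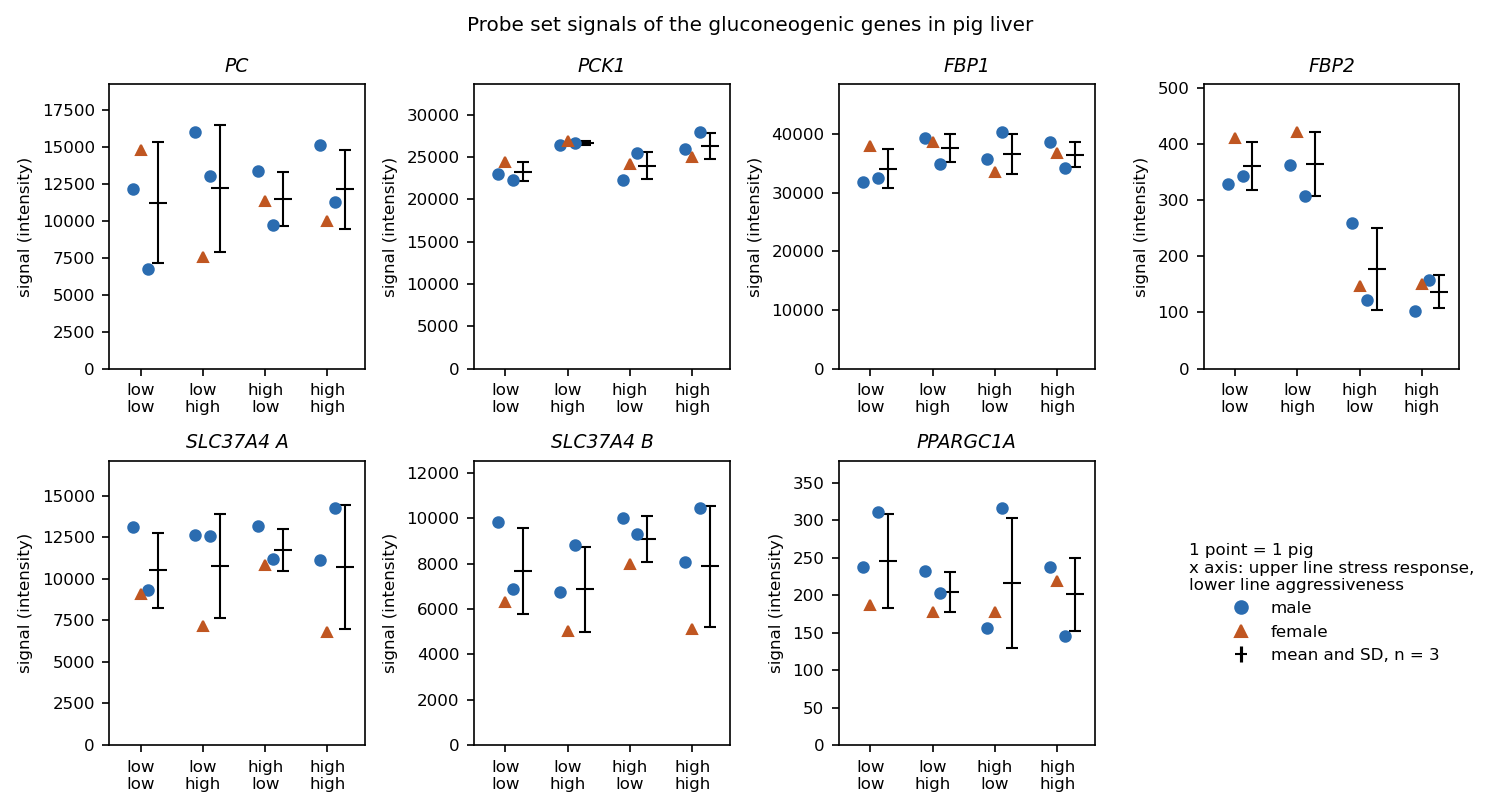
Probe set signal (linear intensity, vertical axis from 0) of each gene by group, with stress response on the upper and aggressiveness on the lower line of the horizontal axis; points are pigs, circles male and triangles female, and bars the mean and SD of 3 pigs. FBP2 lies between 103.1 and 259.4 in the high stress response pigs and between 307.7 and 421.3 in the low, while the stress response levels overlap for every other gene.

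The size of the FBP2 difference moved with the processing. Its direction is fixed by the choice of FBP2, whose levels do not overlap, and is no sign of stability. The fitted value ran from -1.34, without high-low 2, to -0.97, with a constant of 64 added before the log in place of 16. High-low 2, at 259.4, lay apart from the next highest pig of its stress response level, at 157.6.

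**Figure D2:**
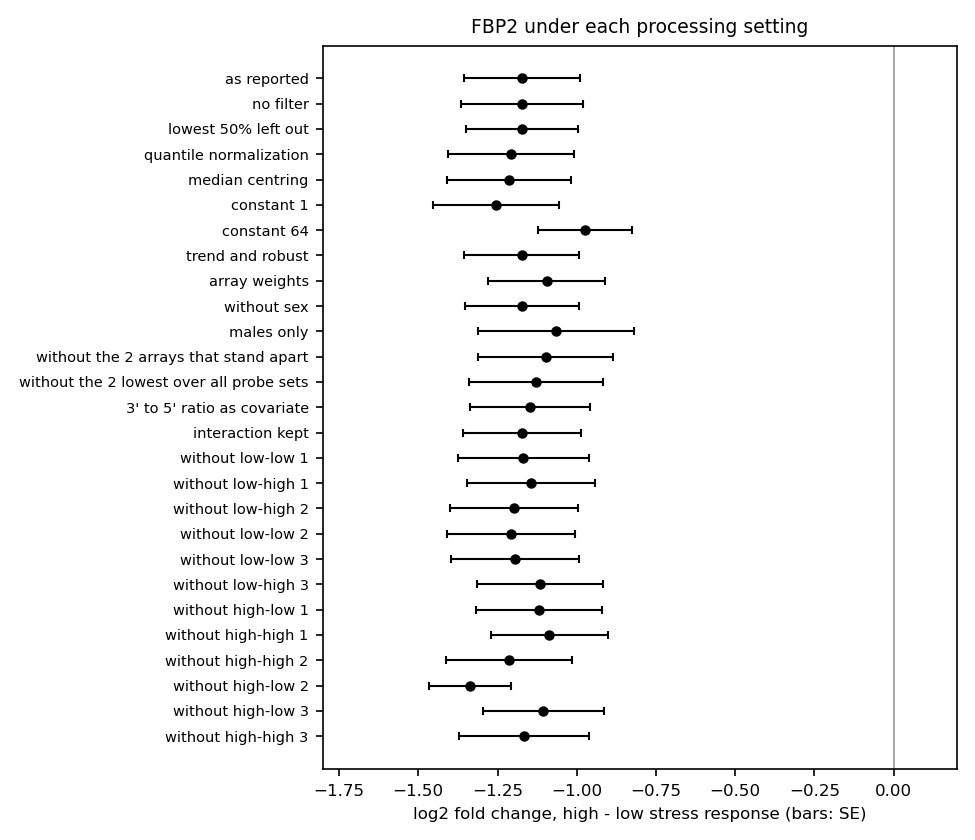
Fitted log2 fold change of FBP2, high against low stress response, under each setting (rows), with its SE as bars. All values lie between -1.34 and -0.97.

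Skeletal muscle was considered because FBP2 is its form of the enzyme. Of 30 listed muscle markers 23 were on the array and 8 passed the filter on low signals. The summed signal of all 23 ran from 2919 to 3821 at high and from 2658 to 3909 at low stress response. These ranges overlapped. The tropomyosins TPM1 (mean 1472) and TPM2 (mean 1016), which other cells also make, hold most of that sum. By gene, 3 of the 8 were above 0 and 5 below for stress response, with a median of -0.07. The muscle creatine kinase CKM and the myosin light chains MYL1 and MYLPF were below the filter, at 11.6 to 73.4, 2.53 to 83.1 and 6.80 to 74.3 over the 12 pigs, with overlap between the stress response levels for each, and ACTA1 was not analysed here. What part muscle transcripts have in the FBP2 difference was not tested. Of the muscle enzymes that passed, ENO3, the muscle enolase, had a signal of 60.7 ± 22.3 in the high stress response pigs and 92.7 ± 37.8 in the low (mean ± SD, n = 6). PYGM, muscle glycogen phosphorylase, had 90.6 ± 25.5 and 80.1 ± 8.06 likewise. Of 5 kidney tubule markers on the array 2 passed. Their summed signal, over all 5, ran from 268.6 to 825.7 at high and from 439.5 to 1301 at low stress response, again overlapping. MIOX (mean 455.8) holds most of that sum. It had 347.4 ± 252.2 in the high stress response pigs and 564.3 ± 268.6 in the low, or -0.88 (SE 0.45) in log2. SLC5A1, the other that passed, had 77.2 ± 14.5 and 66.5 ± 22.8. RNA quality, read as the 3' to 5' ratio of the control probe sets (log2), was 2.22 ± 0.14 in high and 2.25 ± 0.09 in low stress response pigs.

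For FBP2 the other contrasts gave small values. High against low aggressiveness differed by -0.14 (SE 0.18, limma adjusted p = 0.9999), and males against females by -0.14 (SE 0.19, limma adjusted p = 0.962). The interaction, which asks whether the stress response difference depended on aggressiveness, was -0.29 (SE 0.37, limma adjusted p = 0.999). Its 95% interval ran from -1.12 to 0.53, which includes values as large as the stress response difference itself within the low aggressiveness pigs.

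PC, the first enzyme of the path, varied most between pigs among the abundant members, with a coefficient of variation of 24.8% over all 12. Its signal was 15121, 11258 and 9970 in high-high, 11352, 13363 and 9717 in high-low, 16014, 13013 and 7514 in low-high, and 14757, 12176 and 6757 in low-low. The lowest and the highest pig both had low stress response, and the groups overlapped. High against low stress response was 0.07 (SE 0.23, 95% interval -0.44 to 0.57) on the log2 scale.

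PCK1, which makes phosphoenolpyruvate and is widely read as a marker of gluconeogenic drive, had a coefficient of variation of 7.43%. Its signal was 25896, 27976 and 24971 in high-high and 24155, 22288 and 25514 in high-low pigs. It was 26451, 26694 and 26837 in low-high and 24455, 23020 and 22261 in low-low pigs. Within the low stress response pigs the aggressiveness groups of 3 did not overlap, as was so for 1236 of all probe sets (7.73%) in either direction, and within the high they overlapped. Stress response levels overlapped, with a log2 fold change of 0.01 (SE 0.10, 95% interval -0.20 to 0.22).

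In the high aggressiveness pigs PCK1 averaged 26471 ± 1003 and in the low 23616 ± 1308 (SD, n = 6 each), a difference of 0.17 (SE 0.10) on the log2 scale. This did not pass the test, with an unadjusted limma p of 0.116 and an adjusted p of 0.9999, and the 95% interval ran from -0.05 to 0.38. The SE, p and interval use limma's moderated variance, which draws on the spread of all probe sets tested. They do not measure the scatter of PCK1 alone. Over all probe sets, 515 (3.22%) had an unadjusted p under 0.05 for aggressiveness and none (0%) an adjusted p under 0.05.

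FBP1, the liver form of fructose-1,6-bisphosphatase, had a coefficient of variation of 7.76%, like that of PCK1. Both lay at the top of the signal range, at a mean percentile of 99.77 for FBP1 and 99.27 for PCK1. They followed the array mean at r = 0.71 and r = 0.60 over 12 arrays. The ribosomal protein genes RPS26 (r = 0.880) and RPS21 (r = 0.876) were among the genes most like FBP1. Whether signals this high are compressed was not tested. Its signal was 38560, 34172 and 36668 in high-high, 33563, 35715 and 40345 in high-low, 39286, 34895 and 38585 in low-high, and 37846, 31869 and 32451 in low-low. All groups overlapped. The log2 fold change for stress response was 0.03 (SE 0.11, 95% interval -0.21 to 0.27), beside -1.17 for FBP2. In the RefSeq annotation of Sscrofa11.1 FBP1 and FBP2 are neighbours on chromosome 10. Whether probes of the FBP2 set also bind FBP1 transcripts was not tested. Within the high stress response pigs the log2 signals of FBP2 and FBP1 correlated at r = -0.49, and within the low at r = 0.69 (n = 6 each), as a description of arrays that share their scaling.

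SLC37A4 was measured by 2 probe sets, here A and B, which ranked the pigs alike (r = 0.91 over 12 arrays). Probe set A gave 11100, 14235 and 6768 in high-high, 10838, 13154 and 11165 in high-low, 12603, 12570 and 7142 in low-high, and 9098, 13097 and 9331 in low-low. Probe set B gave 8086, 10441 and 5125, then 8002, 10004 and 9307, then 6743, 8813 and 5043, then 6310, 9844 and 6862 in the same order. In each of the 4 groups the female had the lowest signal, with both probe sets. Of all probe sets tested, 160 (1%) had the female lowest in all 4 groups.

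For SLC37A4 A males averaged 12157 ± 1542 (SD, n = 8) and females 8462 ± 1885 (SD, n = 4), a log2 fold change of 0.54 (SE 0.16). For B the averages were 8763 ± 1413 and 6120 ± 1382, a log2 fold change of 0.53 (SE 0.15). The unadjusted limma p was 0.00639 for A and 0.00491 for B, and neither passed over all probe sets, with an adjusted p of 0.818 for both. Over the settings tried the adjusted p ran from 0.421 to 0.995 for A and from 0.371 to 0.995 for B. For sex, 834 probe sets (5.21%) had an unadjusted p under 0.05 and 11 (0.0688%) an adjusted p under 0.05. The females high-high 3 and low-high 3 had the lowest signals for both probe sets. Without these 2 animals the male to female log2 fold change of A was 0.22, and that of B 0.33. Stress response differences were 0.07 (SE 0.15) for A and 0.22 (SE 0.14) for B.

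PPARGC1A, which coactivates transcription of PCK1 and other fasting genes, had signals of 237.7, 145.9 and 219.4 in high-high and 177.9, 155.5 and 315.7 in high-low pigs. Low-high pigs had 231.6, 203.2 and 177.3, and low-low pigs 186.1, 238.0 and 311.2. The groups overlapped, and high-low 3 and low-low 3 were highest. The log2 fold change was -0.12 (SE 0.19, 95% interval -0.54 to 0.29) for stress response and -0.14 (SE 0.19) for aggressiveness.

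No probe set of the 6 genes passed in any tested contrast by limma. Adjusted p was 0.9999 for aggressiveness and 0.9993 for the interaction throughout, and at least 0.818 for sex. At an unadjusted p under 0.05 the members gave none for aggressiveness or the interaction, and both SLC37A4 probe sets for sex. For the interaction, 619 of all probe sets (3.87%) had an unadjusted p under 0.05 and none (0%) an adjusted p under 0.05.

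**Figure D3:**
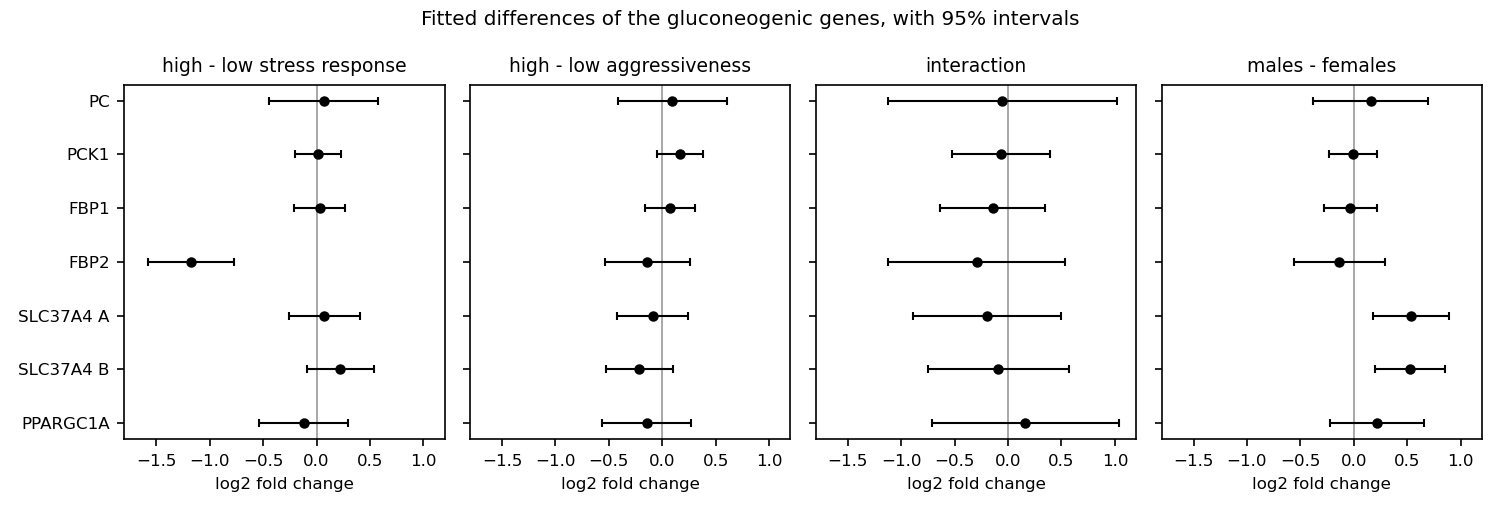
Fitted log2 fold changes of the 7 probe sets with 95% intervals, in 4 panels for stress response, aggressiveness, their interaction and sex. FBP2, chosen on the stress response panel, is at -1.17 there, and both SLC37A4 probe sets are near 0.5 in the sex panel (0.54 and 0.53), where neither passed after adjustment.

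Over the 15 pairs of the 6 genes, r of the log2 signals ran from -0.29 to 0.54 across the 12 arrays, and 6 pairs were above 0. After subtraction of group means r ran from -0.72, for FBP2 with PPARGC1A, to 0.56, for SLC37A4 A with PC. For FBP1 with PPARGC1A r was 0.11 over 12 arrays and 0.72 when the 2 pigs farthest from the median of FBP1 were left out. These are descriptions of arrays that share their scaling. The genes most like FBP2 over the 12 arrays were FDFT1, which begins the sterol branch (r = 0.907), the myelin gene MBP (r = 0.896) and COMMD3 (r = 0.882), out of 5809 compared. FBP2 was chosen on its stress response difference, so this ranking draws on the same values and favours genes that share that difference. FDFT1 averaged 3241 at high and 5591 at low stress response, MBP 958 and 1337, and COMMD3 3600 and 4326. After subtraction of each group's mean the r with FBP2 was 0.788 for FDFT1, 0.640 for MBP and 0.564 for COMMD3. Within the high stress response level FBP2 and FDFT1 correlated at r = 0.856 and within the low at r = 0.186 (n = 6 each). For FBP2 and MBP these were 0.86 and 0.53, and for FBP2 and COMMD3 0.71 and -0.12. The most like gene was OCRL for FBP1 (r = 0.926), AGTR1, an angiotensin receptor, for PCK1 (r = 0.820), PMPCA for PC (r = 0.918), TRAPPC2L for SLC37A4 (r = 0.876) and ACTR2 for PPARGC1A (r = 0.906).

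Over all 5810 genes the stress response difference had a median of 0.02, 55.2% of genes were above 0, and 8.59% had an unadjusted p under 0.05. The substrate entry list held 21 measured genes. Among them were pyruvate dehydrogenase (PDHA1, PDHB) and its kinases (PDK3, PDK4), so not all feed substrate into the path. For stress response 7 of the 21 were above 0 and 14 below, with a median of -0.10. By limma 1 had an unadjusted p under 0.05. That gene was GK, glycerol kinase, with 4154 ± 203.3 in the high stress response pigs and 3179 ± 768.2 in the low (SD, n = 6). PCK2, the mitochondrial form of the carboxykinase, differed by -0.46 (SE 0.23, log2) and GPD1, glycerol-3-phosphate dehydrogenase, -0.36 (SE 0.21). SDS, serine dehydratase, had 1.18 (SE 0.61). The lactate dehydrogenases LDHA and LDHB had -0.03 (SE 0.16) and -0.13 (SE 0.16).

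By sex, all 21 genes of the substrate entry list had a higher fitted value in males. Their median was 0.16 against -0.03 over all genes, of which 42.8% were above 0. None passed an adjusted p under 0.05 by limma, and 3 had an unadjusted p under 0.05, among them the aminotransferases TAT (1.08, SE 0.27) and GOT1 (0.74, SE 0.20). Without high-high 3 and low-high 3, 2 of the 4 females, 13 of 21 were above 0 with a median of 0.10. The genes share arrays and are not independent replicates.

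Glycolysis, the opposing path, was evenly split for stress response, with 8 of 16 above 0 and a median of -0.01, with 5 of 16 above 0 under median centring and 11 of 16 (median 0.06) without the least alike pair of arrays. HK1, a hexokinase, had 0.34 (SE 0.17), and HK3, another, -0.38 (SE 0.50). ENO3 had -0.47 (SE 0.19) for stress response and 0.65 (SE 0.19) for aggressiveness. Its signals were low, from 27.6 to 143, beside the filter at a mean of 40.6. In glycogen metabolism 7 of 12 were above 0 (6 with median centring), with a median of 0.07. PYGL, liver glycogen phosphorylase, had -0.33 (SE 0.14). PGM2 and PGM3, which are on this list but are not specific to glycogen, had 0.51 (SE 0.21) and 0.62 (SE 0.20).

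Among regulators of gluconeogenic transcription 12 of 19 were above 0 for stress response, with a median of 0.08, near the share of 55.2% over all genes. STAT3, which acts below interleukin-6, had 5547 ± 1634 in the high stress response pigs and 3541 ± 507.1 in the low (SD, n = 6), or 0.61 (SE 0.20) in log2. PPARA, a fasting receptor, had -0.55 (SE 0.27) and NR4A2 0.49 (SE 0.23). Their mean signals were 83.0 and 46.3, that of NR4A2 close to the filter at 40.6. FOXO1 and the glucocorticoid receptor NR3C1 had -0.04 (SE 0.17) and 0.08 (SE 0.18). The PCK1 regulators HNF4A, CEBPA and CEBPB had 0.17, -0.28 and 0.11. CREB1, the cyclic AMP effector, had an interaction of -1.77 (SE 0.40, limma adjusted p = 0.814) at a mean signal of 54.5, close to the filter at 40.6.

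For insulin and glucagon signalling and glucose transport 12 of 14 were above 0 for stress response, with a median of 0.10, beside 55.2% and 0.02 over all genes. The count was 10 of 14 with median centring or quantile normalization and 8 of 14 without the least alike pair of arrays. The insulin receptor INSR had 92.5 ± 9.63 in the high stress response pigs and 61.4 ± 18.5 in the low (SD, n = 6), or 0.51 (SE 0.16) in log2. Its signals were low, from 45.7 to 102.9 over the 12 pigs, beside the filter at 40.6. PTPN1, a phosphatase that dampens insulin signals, had 0.33 (SE 0.19), AKT1 0.20 (SE 0.10) and the liver glucose transporter SLC2A2 0.15 (SE 0.11). For aggressiveness the medians of the 5 lists lay between -0.05 and 0.05, and 49.98% of all genes were above 0. Without high-high 3 and low-high 3 the median was -0.12 for insulin and glucagon signalling (3 of 14 above 0). It was then 0.07 for glycolysis (15 of 16) and 0.04 for substrate entry (14 of 21, against 8 of 21 with all animals). The median over all probe sets tested was -0.02 in that setting. No gene of any list had an adjusted p under 0.05 for stress response or aggressiveness by limma.

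**Figure D4:**
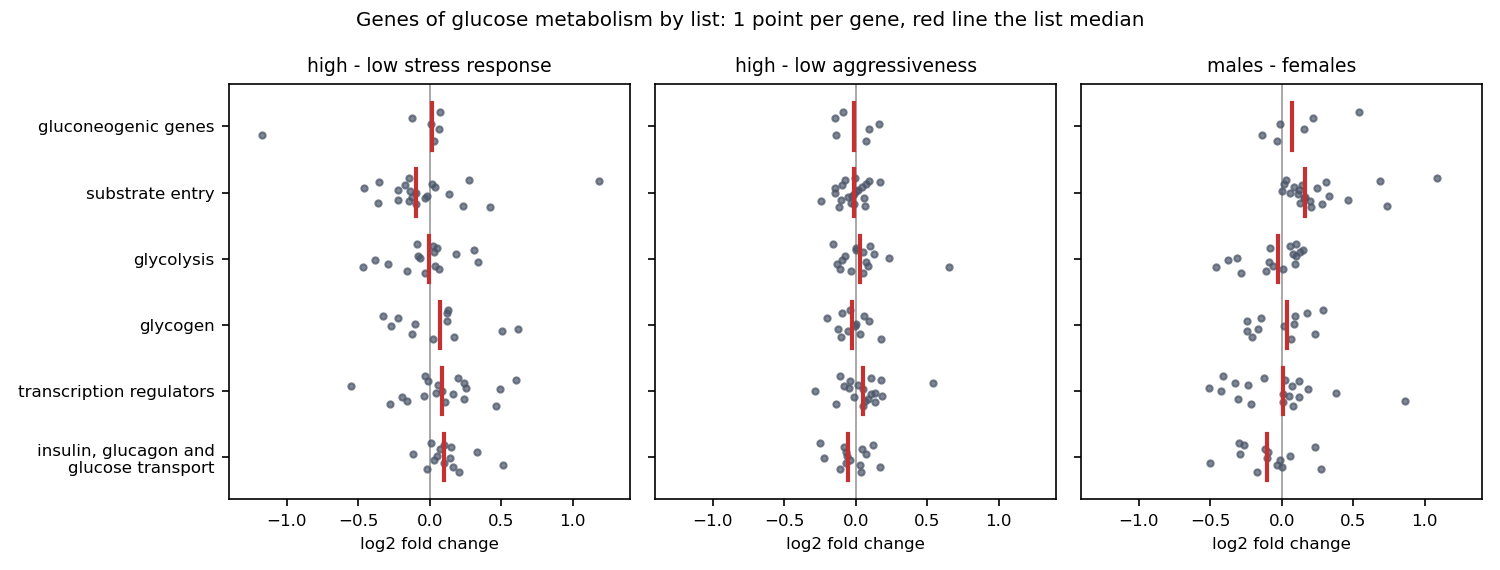
Fitted log2 fold change (horizontal axis) of each measured gene of the gluconeogenic set and 5 related lists, 1 point per gene with the list median as a red line, for stress response, aggressiveness and sex. FBP2 is the point at -1.17 in the stress response panel, and all 21 genes of the substrate entry list lie above 0 in the sex panel.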

How the data were processed

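Probe set signals of 12 arrays were used as deposited: linear intensity values made by the authors with GCOS 1.1.1, per the submitters' processing notes. How probes were summarised and arrays scaled is not given in the sources used here, and each array had a 2% trimmed mean of 500.2. The 124 Affymetrix controls and then the 33.3% of probe sets with the lowest mean were left out, which kept 15999 of 23999 and all 7 probe sets of the gluconeogenic genes. The log2(signal + 16) values were fitted in limma 3.58.1 (R 4.3.3) with stress response, aggressiveness and sex (8 residual degrees of freedom), and again with the interaction (7). Each SE, interval and p rests on limma's moderated variance, which draws on all probe sets tested. The threshold was a Benjamini-Hochberg adjusted p under 0.05 over all 15999. Fold changes are on this log2 scale, high against low or males against females, and understate changes of low signals. No label says that pigs share a litter or pen.

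The members, lists and tests were chosen with earlier results of these data known. A gene outside the members was represented by its brightest kept probe set. Named are genes on a fixed list, in each pathway list the 3 with the largest stress response and the 2 with the largest aggressiveness difference, and for each member the 3 most correlated genes, of which mostly the first is given. Symbols came from the platform annotation, and RefSeq served only for gene order. The pipeline was tested on simulated data. Alternatives were other filters, normalizations, constants, variance estimates, covariates and omitted animals.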

Additional observations from a re-analysis of the deposited data

Results flagged for a closer look

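FBP2 in high-low 2 was far from the other 5 pigs of high stress response. Its signal was 259.4, the next highest was 157.6, and the gap divided by the range of the 6 was 0.652. Of 42 groups of signals examined for the 6 genes, 1 had such a sample, and about 1 in 20 would by chance. Without high-low 2 the log2 fold change of FBP2 for stress response was -1.34.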

How the results depend on the processing

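No probe set of the 6 genes passed for aggressiveness in 26 alternatives, the interaction in 25 or sex in 24. The FBP2 difference for stress response, whose sign its choice fixes, ran from -1.34 to -0.97. Several differences changed sign, not all of them near 0, and the cause was not tested. For aggressiveness these were FBP1 with quantile normalization (-0.012) and SLC37A4 A in males only (0.12), without high-high 3 and low-high 3 (0.12) and with the 3' to 5' ratio as covariate (0.0099). For the interaction they were PC (0.10) and SLC37A4 B (0.021) with that covariate, SLC37A4 B in males only (0.022), and PCK1 with quantile normalization (0.033) and without high-high 3 and high-low 3 (0.054). For sex they were FBP1 (0.060 and 0.024) and PCK1 (0.038 and 0.048) with quantile normalization and median centring, PCK1 with the covariate (0.0052), and PC without high-high 3 and low-high 3 (-0.35). Without those 2 females, an omission chosen after seeing the data, the sex medians were -0.16 for glycolysis and 0.14 for insulin and glucagon signalling. With 1 animal left out in turn, the aggressiveness difference ran from -0.21 to 0.025 for FBP2 (above 0 without high-low 2) and from -0.075 to 0.25 for PC. The interaction ran from -0.49 to 0.041 for FBP2, -0.44 to 0.32 for PC, -0.076 to 0.43 for PPARGC1A and -0.25 to 0.073 for SLC37A4 B. The sex difference ran from -0.077 to 0.0093 for FBP1, -0.060 to 0.40 for PC, -0.050 to 0.013 for PCK1, and its median from -0.11 to 0.012 for the transcription regulators. No paired analysis was possible because the labels number the pigs 1 to 12 and share no number between groups. The signals carry no detection calls, so low signals such as those of CREB1 have no stated distance from background.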
